A study of Mus musculus with 13 samples.

Results

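The E2f family of cell cycle transcription factors, E2f1 to E2f8, was followed in F4/80+ cells of the mouse fetal liver at E13.5. The 8 genes were taken by name as a family and not by their values, though with earlier results of these data known. Each of the 8 was present in every data type, among 57796 distinct gene names in all. EKLF, encoded by Klf1, is a zinc finger activator of red cell genes, and the study asked what it does in the macrophages of the erythroblastic island, the cluster of red cell precursors around a central macrophage. All samples came from cells of E13.5 embryos labelled C57BL/6. In the first, F4/80+ cells of EKLF+/+ embryos were compared with those of EKLF-/- embryos, which lack EKLF in every cell and not only in macrophages. The study's resource list gives a 129S4/SvJae background for the EKLF-/- line, so background and genotype may differ together. In the second, embryos wild type for EKLF carried GFP under the EKLF promoter (pEKLF-GFP), and F4/80+ cells were sorted into EKLF/GFP+ and EKLF/GFP- fractions, so that the sort reports the activity of a promoter and both fractions carry the transgene. Each of these 4 groups had 3 libraries, described as biological triplicates. In addition, 1 single-cell library was made of wild type F4/80+ cells, selected with magnetic beads from pooled littermate embryos, and its clusters have no replicates.

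E2F proteins bind the promoters of genes needed for DNA replication and mitosis. E2f1, E2f2 and E2f3 are classed as activators, E2f4 and E2f5 act mainly as repressors with the pocket proteins p107 and p130, E2f6 represses within a Polycomb complex, and the atypical E2f7 and E2f8 repress without a DP partner. In red cell formation, where divisions are coupled to maturation and then stop, E2f2 and E2f4 are the members best known for a role.

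Gene-assigned counts ran from 10695514 to 15362161 per library in the EKLF+/+ and EKLF-/- set and from 22723197 to 28736342 in the EKLF/GFP set, and bulk levels are given as CPM, the counts scaled to a fixed total after TMM normalization of the library sizes. The bulk libraries held RNA of macrophage and of erythroid marker genes. Adgre1, which encodes F4/80, stood at 26.8 to 33.6 CPM in EKLF+/+ and 29.4 to 40.3 CPM in EKLF-/- libraries. Of the 14 macrophage markers as a whole, 3 were called lower in EKLF-/-, namely Timd4 (log2 fold change -1.89), Cd5l (-1.03) and Mrc1 (-0.70), and their summed level was 342.5 to 526.2 CPM against 344.4 to 415.6 CPM in EKLF+/+. In EKLF/GFP+ libraries 2 of the 14 were called lower, Csf1r (-1.75) and Cd68 (-0.92), with sums of 222.9 to 621.8 CPM against 383.3 to 571.8 CPM in EKLF/GFP-. Over all genes tested, 10.6% were called lower in EKLF-/- and 25.8% in EKLF/GFP+ libraries. The summed level of the erythroid list (Slc4a1, Alas2, beta globin and others) was 14090 to 18310 CPM in EKLF+/+ and 3921 to 5878 CPM in EKLF-/- libraries, and it was 13910 to 17660 CPM in EKLF/GFP+ and 7276 to 9826 CPM in EKLF/GFP- libraries. In the EKLF+/+ and EKLF-/- set Hba-a1 was listed at 0 and Hba-a2 at 1 count or fewer, and Hbb-bt and Ahsp were not analysed there, so that its sum holds 1 globin row, while that of the EKLF/GFP set holds 4. The erythroid sums moved with the groups in the same direction as the E2f results below, and their part in those results was not tested. In bulk libraries fewer cells of a type and less RNA per cell cannot be told apart.

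On GRCm38 the members are spread over 8 chromosomes. E2f1 lies at chr2:154559407-154569892 on the minus strand, E2f2 at chr4:136172394-136196057 on the plus strand and E2f3 at chr13:29906575-29986063 on the minus strand. E2f4 lies at chr8:105297663-105305370, E2f5 at chr3:14578641-14606309, E2f6 at chr12:16810963-16839742 and E2f7 at chr10:110745439-110787384, each on the plus strand, and E2f8 at chr7:48866429-48881596 on the minus strand. E2f3, E2f7 and E2f8 overlap a non-coding gene on the other strand over 1979, 2800 and 3639 bases. The libraries were stranded, but the strand setting of the counting was not given in the sources used here.

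Without EKLF, 6 of the 8 members were lower and none was higher (edgeR quasi-likelihood test, adjusted p under 0.05). Over all 12753 genes tested, 20.3% were called, 10.6% lower and 9.72% higher. The EKLF+/+ and EKLF-/- libraries did not overlap for 7 of the 8 members, each time with EKLF-/- below, and over all genes 46.3% separated, 23.4% in that direction. The median log2 fold change of the members was -0.65, against 0.02 over all genes tested. The family as a whole summed to 1299 to 1380 CPM in EKLF+/+ and to 548.7 to 635.2 CPM in EKLF-/- libraries. Klf1 itself, at 362, 305 and 376 CPM in EKLF+/+, was at 58.7, 64.2 and 57.1 CPM in EKLF-/- libraries (log2 fold change -2.53, SE 0.12, adjusted p 7.22e-06). This was in the direction of the labels but short of absence, and counts per gene do not show whether the remaining reads lie in the disrupted part. Markers of other cells were called as well, with 4 of 8 erythroid, 3 of 5 progenitor, 5 of 7 endothelial and 5 of 7 mesenchymal markers lower and 3 of 4 granulocyte-monocyte progenitor markers higher in EKLF-/- libraries. Of 7 neutrophil markers 3 were higher and 1 lower, and of 6 monocyte markers 2 were higher.

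Among the activators, E2f2 had the widest separation. Its level was 437, 445 and 484 CPM in the EKLF+/+ libraries and 102, 84.9 and 105 CPM in the EKLF-/- libraries. The lowest EKLF+/+ library thus lay far above the highest EKLF-/- library. The log2 fold change was -2.22 (SE 0.12, adjusted p 1.57e-05), a 4.67-fold lower level. E2f1 was at 109, 101 and 105 CPM in EKLF+/+ and at 66.0, 73.2 and 74.5 CPM in EKLF-/- libraries, again without overlap. E2f1 fell by 0.56 on the log2 scale (SE 0.098, adjusted p 0.0072). E2f3 was at 65.5, 56.4 and 58.8 CPM against 51.4, 36.9 and 43.3 CPM. These ranges did not overlap, but the log2 fold change of -0.46 (SE 0.14) missed the threshold with an adjusted p of 0.0523, and E2f3 passed under 5 of 13 alternatives, DESeq2 among them.

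Of the pocket-binding repressors, E2f4 passed the test and E2f5 did not. E2f4, the most abundant member per length (below), was at 439, 396 and 405 CPM in EKLF+/+ and at 181, 185 and 169 CPM in EKLF-/- libraries. E2f4 fell by 1.21 on the log2 scale (SE 0.10, adjusted p 0.000206), or 2.31-fold, with a narrow spread in both groups. E2f5 was at 13.9, 12.1 and 14.2 CPM against 12.6, 14.8 and 12.7 CPM. The E2f5 ranges overlapped and the log2 fold change was 0.00 (SE 0.15, adjusted p 0.998).

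The calls of E2f6 and of the atypical members were less secure, with adjusted p nearer to the threshold. E2f6 was at 71.2, 65.4 and 70.2 CPM in EKLF+/+ and at 53.3, 55.0 and 55.0 CPM in EKLF-/- libraries (log2 fold change -0.34, SE 0.095, adjusted p 0.0390). Its call was lost under 7 of 13 alternatives, among them no filter and leaving out the first EKLF-/- library. E2f7 was at 40.2, 38.6 and 35.0 CPM against 27.9, 14.8 and 25.0 CPM (-0.75, SE 0.22, adjusted p 0.0433). E2f8 was at 204, 185 and 195 CPM against 141, 83.7 and 118 CPM (-0.77, SE 0.17, adjusted p 0.0197). For all 3 genes every EKLF-/- library lay below every EKLF+/+ library, and for E2f7 and E2f8 the second EKLF-/- library was well below the other two. Leaving out any EKLF+/+ library, or the third EKLF-/- library, left 3 of the 8 members called, and these were E2f1, E2f2 and E2f4. Calls fell over all genes as well. In these fits 576 of 12604, 609 of 12524, 632 of 12584 and 575 of 12640 genes were lower, against 1356 of 12753. Without the second EKLF-/- library 7 of 8 passed, E2f3 among them, and 1734 of all 12616 genes tested were lower.

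**Figure D1:**
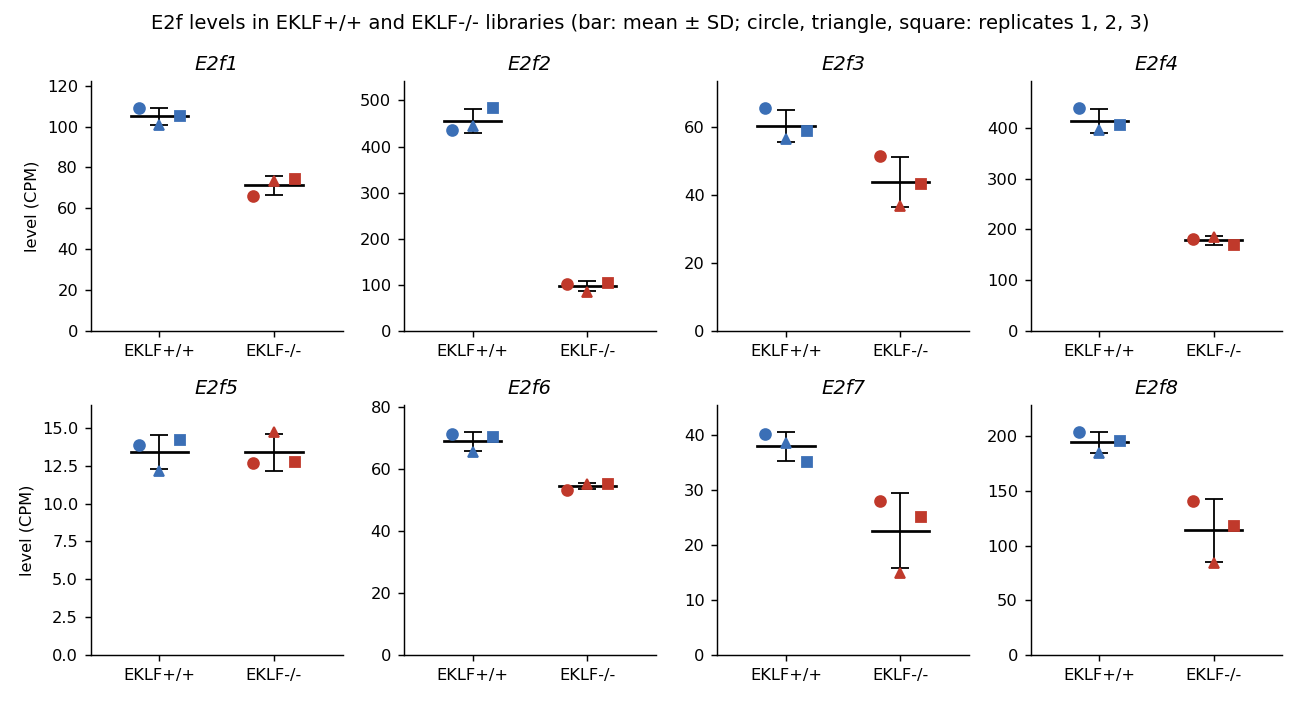
Level of each E2f member in CPM (y axes, starting at 0) in the 3 EKLF+/+ (blue) and 3 EKLF-/- (red) libraries, with the marker shape giving the replicate and the black bar the mean ± SD. E2f2 drops from 437 to 484 CPM to 84.9 to 105 CPM, E2f5 overlaps between the groups, and the triangle of the second EKLF-/- library is the lowest point for E2f2, E2f3, E2f7 and E2f8.

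That second EKLF-/- library also differed in its dependence on gene length. Among the genes tested with a known length, its median deviation from the mean of the libraries was 0.22 on the log2 scale among the shortest of 3 equal groups of genes and -0.26 among the longest, and in the other 5 libraries these deviations stayed within 0.16. The median fold change between the genotypes followed length as well, at 0.18 for the shortest, 0.03 for the middle and -0.21 for the longest group. With each library's length trend removed, the same 6 members were called lower, and 1401 instead of 1356 of all genes.

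Levels of different members can be compared only per length, and here CPM was divided by the effective length of the coding transcripts in kb. In EKLF+/+ libraries the order was E2f4 at 237 ± 13.1 (SD, n = 3), E2f2 at 101 ± 5.604, E2f8 at 59.9 ± 2.95, E2f1 at 42.0 ± 1.66 and E2f6 at 31.8 ± 1.42 CPM per kb. E2f7 at 15.3 ± 1.07 and E2f3 at 13.03 ± 1.03 CPM per kb followed and overlapped each other, and E2f5 was lowest at 8.77 ± 0.73 CPM per kb. In EKLF-/- libraries E2f4 was still first at 102 ± 4.91 CPM per kb. E2f2, at 21.7 ± 2.43 CPM per kb, moved from rank 2 to rank 5, below E2f8 at 35.1 ± 8.81, E2f1 at 28.5 ± 1.83 and E2f6 at 25.1 ± 0.45 CPM per kb.

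Wild type cells sorted by the EKLF promoter were compared next. In EKLF/GFP+ relative to EKLF/GFP- libraries 3 of the 8 members, E2f1, E2f2 and E2f4, were higher and none was lower, and E2f6, E2f7 and E2f8 were not called, in a comparison where 44.7% of the 14259 genes tested were called, 18.9% higher and 25.8% lower. For 4 of the 8 the groups did not overlap with EKLF/GFP+ above, while over all genes 55.7% separated, 25.2% with EKLF/GFP+ above and 30.5% with it below. The median log2 fold change of the members was 0.27, against -0.01 over all genes. Klf1 was at 101, 90.2 and 87.3 CPM in EKLF/GFP+ and at 34.6, 45.7 and 28.6 CPM in EKLF/GFP- libraries (log2 fold change 1.35, SE 0.16, adjusted p 0.000321), in the direction of the sort. The EKLF/GFP+ libraries were extracted with a column kit and the EKLF/GFP- libraries with Trizol, so kit and group cannot be told apart.

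E2f2 again led. It was at 68.9, 73.6 and 77.3 CPM in EKLF/GFP+ and at 32.7, 33.6 and 28.5 CPM in EKLF/GFP- libraries, with a wide gap between the groups. The log2 fold change was 1.21 (SE 0.093, adjusted p 3.86e-05), or 2.32-fold. E2f4 was at 253, 232 and 252 CPM against 156, 166 and 128 CPM, also without overlap (log2 fold change 0.71, SE 0.11, adjusted p 0.000909). E2f1 was at 38.7, 35.4 and 36.4 CPM against 31.5, 31.3 and 27.1 CPM, a difference of 0.30 on the log2 scale (SE 0.090, adjusted p 0.0281) that missed the threshold under 5 of 15 alternatives, namely when any EKLF/GFP- library was left out, with a replicate block and with an offset for the average transcript length.

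The other 5 members missed the threshold. E2f8 came closest, at 187, 164 and 189 CPM in EKLF/GFP+ and 149, 168 and 122 CPM in EKLF/GFP- libraries (log2 fold change 0.30, SE 0.12, adjusted p 0.0801), and it passed under 5 of 15 alternatives, DESeq2 among them. E2f5 did not overlap, at 15.3, 13.1 and 12.6 CPM against 11.3, 10.9 and 12.2 CPM, with a log2 fold change of 0.25 (adjusted p 0.119). E2f3, at 24.6 to 28.2 CPM in EKLF/GFP+ and 24.0 to 26.5 CPM in EKLF/GFP- libraries, differed by 0.07 on the log2 scale (adjusted p 0.552). E2f6 and E2f7 each differed by 0.16 on the log2 scale (adjusted p 0.354 and 0.333), and their ranges overlapped as well.

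**Figure D2:**
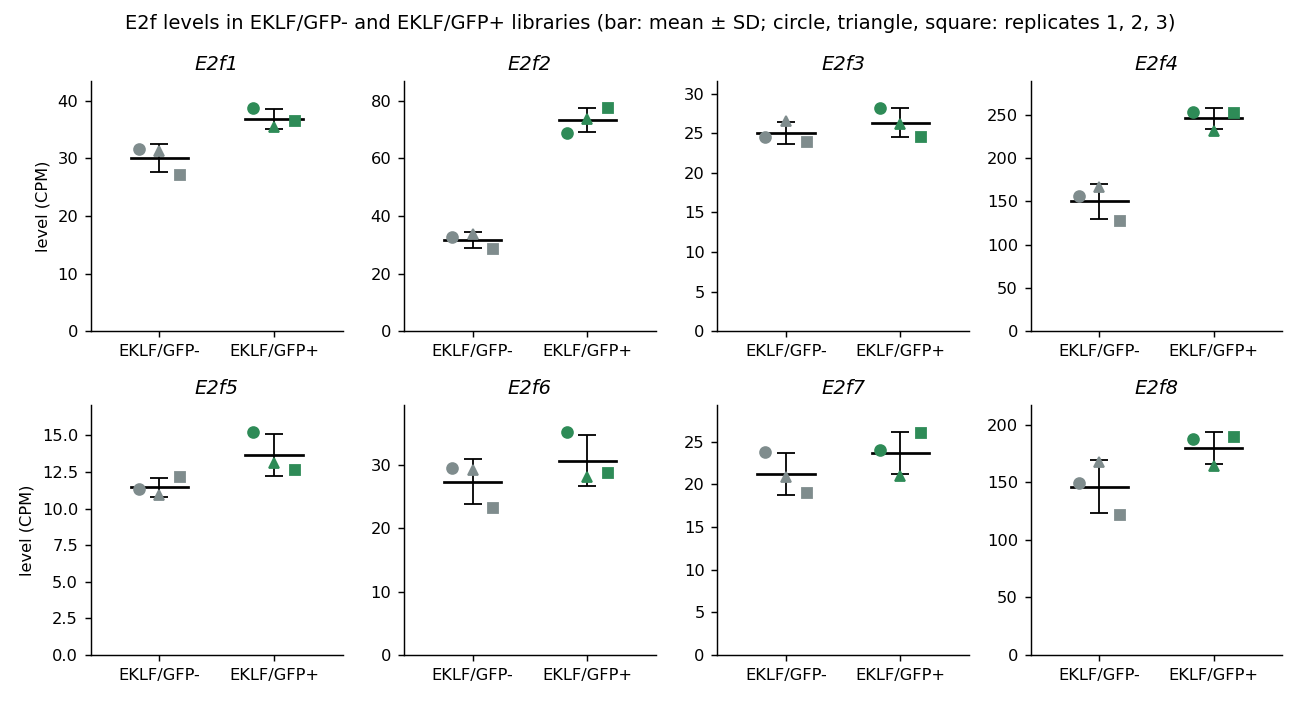
Level of each E2f member in CPM (y axes, starting at 0) in the 3 EKLF/GFP- (grey) and 3 EKLF/GFP+ (green) libraries, with the marker shape giving the replicate and the black bar the mean ± SD. E2f2 sits between 28.5 and 33.6 CPM in EKLF/GFP- and between 68.9 and 77.3 CPM in EKLF/GFP+ libraries, and E2f1, E2f4 and E2f5 also separate.

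E2F proteins other than the atypical pair bind DNA together with a DP protein, encoded by Tfdp1 or Tfdp2. Tfdp2 was at 193, 179 and 223 CPM in EKLF+/+ and at 123, 69.7 and 106 CPM in EKLF-/- libraries (log2 fold change -0.99, SE 0.20, adjusted p 0.0122). It was at 135, 168 and 146 CPM in EKLF/GFP+ and at 68.0, 64.7 and 63.6 CPM in EKLF/GFP- libraries (1.19, SE 0.094, adjusted p 4.26e-05). Tfdp2 therefore separated in both comparisons, on the same side as E2f2 and E2f4. Tfdp1 did not pass in either, with log2 fold changes of -0.23 (adjusted p 0.163) and -0.12 (adjusted p 0.1997).

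Of the pocket proteins, which hold E2F in check until they are phosphorylated, none of the 3 passed between EKLF-/- and EKLF+/+. The log2 differences were -0.41 for Rb1, the retinoblastoma gene (adjusted p 0.103), -0.53 for Rbl1, which encodes p107 (adjusted p 0.0594), and -0.03 for Rbl2, which encodes p130 (adjusted p 0.908). In the sorted cells Rb1 was higher in EKLF/GFP+ libraries, at 281, 302 and 279 CPM against 151, 162 and 124 CPM (log2 fold change 0.98, SE 0.11, adjusted p 0.000180). Rbl1 at 0.21 (adjusted p 0.0556) and Rbl2 at -0.11 (adjusted p 0.334) did not pass there.

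The cyclins and kinases that phosphorylate the pocket proteins did not move as a block. In EKLF-/- cells, where 10.6% of all genes were called lower, 3 of 8 were lower and none was higher: the cyclins Ccnd2 (log2 fold change -0.98, adjusted p 0.00303) and Ccne2 (-0.66, adjusted p 0.0233) and the kinase Cdk6 (-1.31, adjusted p 0.0125). In EKLF/GFP+ cells, where 18.9% of all genes were called higher and 25.8% lower, 3 of 8 were higher, namely Ccne1 (1.03, adjusted p 0.000476), Ccnd3 (0.59, adjusted p 0.000995) and Ccne2 (0.50, adjusted p 0.00300). The 3 that were lower there were Ccnd1 (-2.16, adjusted p 8.15e-05), Cdk6 (-0.87, adjusted p 0.000296) and Cdk2 (-0.27, adjusted p 0.0154). Cdk6 was thus lower in EKLF-/- and lower in EKLF/GFP+ cells, unlike E2f2, which changed sides. Among the 5 inhibitors of these kinases that were tested, Cdkn2d (p19) was lower in EKLF-/- (-0.68, adjusted p 0.00415) and higher in EKLF/GFP+ cells (0.70, adjusted p 0.000771). Cdkn1b (p27) was higher in EKLF-/- cells (0.38, adjusted p 0.0460), Cdkn2c (p18) was higher in EKLF/GFP+ cells (1.06, adjusted p 0.000256) and Cdkn1a (p21) was lower there (-1.002, adjusted p 0.0421).

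**Figure D3:**
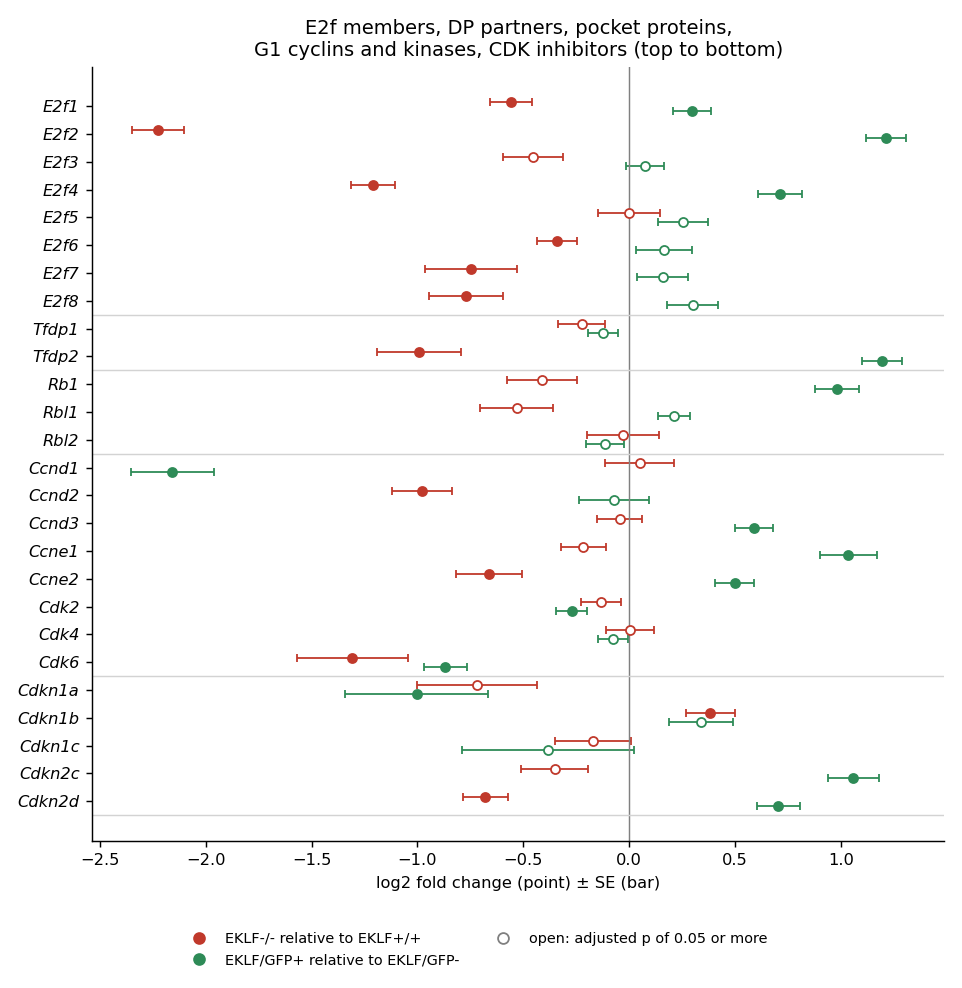
Log2 fold change ± SE (x axis) of the E2f members, DP partners, pocket proteins, G1 cyclins and kinases and CDK inhibitors, in EKLF-/- relative to EKLF+/+ (red) and EKLF/GFP+ relative to EKLF/GFP- (green), with open points for an adjusted p of 0.05 or more. E2f2, E2f4 and Tfdp2 lie left of 0 in the first comparison and right of 0 in the second, and Cdk6 lies left of 0 in both.

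Genes that E2F proteins are known to bind were counted against the 10.6% of all genes called lower and the 9.72% called higher in EKLF-/- cells. Of 24 targets of the G1/S transition 6 were lower and none was higher, with a median log2 fold change of -0.24 against 0.02 over all genes. They included Orc1 (-0.79, adjusted p 0.00838) of the origin recognition complex, Rrm2 (-0.69, adjusted p 0.0125) of ribonucleotide reductase and Uhrf1 (-0.55, adjusted p 0.0183), which maintains DNA methylation. Of 12 G2/M targets none was lower and 2 were higher, the cyclin Ccnb2 (0.55, adjusted p 0.00779) and the kinase Plk1 (0.37, adjusted p 0.0364), with a median of 0.08. In the MuvB and B-Myb list of 7 genes, Mybl2 (B-Myb) was lower (-0.85, adjusted p 0.00154) and Lin37 was higher (0.76, adjusted p 0.0194). Of 9 Polycomb partners of E2f6, Mga was lower (-0.81, adjusted p 0.0499). None of the 5 apoptotic targets tested passed, nor did the single germline target of E2f6 that was tested. Over these 10 lists other than the family itself, 13 genes were lower in EKLF-/- cells, and 6, 5 and 6 were lower without the first EKLF+/+, the third EKLF+/+ and the third EKLF-/- library. Over all genes 1356 were lower, and 576, 632 and 575 in these fits.

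The same target lists were counted in EKLF/GFP+ cells, where 18.9% of all genes were called higher and 25.8% lower. Of the 24 G1/S targets 19 were higher and none was lower, with a median log2 fold change of 0.35 against -0.01 over all genes. Among them were Orc1 (0.71, adjusted p 0.000136), the replication licensing factor Cdc6 (0.66, adjusted p 0.000301) and thymidine kinase Tk1 (0.62, adjusted p 0.000637). Of the 12 G2/M targets 7 were higher and none was lower, including the proliferation marker Mki67 (0.62, adjusted p 0.00173), Ccnb2 (0.43, adjusted p 0.00531) and Ccna2 (0.56, adjusted p 0.00549). Mybl2 (0.53, adjusted p 0.00139) and Lin52 (0.64) were higher. The E2f6 partners split, with Pcgf6 (0.44) and Ring1 (0.42) higher and Rnf2 (-0.63) and Rybp (-0.22) lower. The apoptotic targets split too, with Bbc3 (1.41) and Bcl2l11 (0.51) higher and Pmaip1 (-1.86) and Apaf1 (-0.72) lower. Markers of other cells also moved in this comparison: 6 of 6 monocyte, 7 of 7 neutrophil and 4 of 4 granulocyte-monocyte progenitor markers were lower, as were 5 of 5 progenitor, 5 of 5 lymphoid and 5 of 7 endothelial markers tested, and 11 of 11 erythroid and 5 of 6 megakaryocyte markers were higher in EKLF/GFP+ cells.

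The transcript tables of the sorted cells allowed the make-up of the family to be measured in TPM, a length-corrected relative abundance. The 8 members summed to 271, 218 and 269 TPM in EKLF/GFP+ and to 186, 186 and 144 TPM in EKLF/GFP- libraries, a ratio of 1.47. The groups did not overlap, and a two-sided exact permutation test gave p = 0.1, the smallest that 3 libraries against 3 allow. E2f2 made up 25.2% ± 2.06 (SD, n = 3) of the family in EKLF/GFP+ and 17.1% ± 0.278 in EKLF/GFP- libraries. E2f4 made up 34.0% ± 0.699 against 31.2% ± 0.447, and E2f8 made up 24.9% ± 1.34 against 30.1% ± 1.18. Each of these 3 shares separated without overlap (exact permutation test, p = 0.1 each). The shares of E2f1 (3.34% against 4.16%), E2f5 (2.03% against 2.63%) and E2f7 (2.43% against 4.51%) also separated, with EKLF/GFP+ below. Those of E2f3 and E2f6 overlapped. E2f7 was lower in TPM as well, at 6.85, 4.82 and 6.86 against 8.53, 7.44 and 7.13, opposite in sign to its change in counts.

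These shares depended on which transcripts were counted. Over protein-coding transcripts alone the family summed to a mean of 134 TPM in EKLF/GFP+ and 97.8 TPM in EKLF/GFP- libraries. E2f4 then made up 56.8% against 49.6%, E2f8 made up 20.5% against 23.9% and E2f2 made up 5.31% against 3.23%. The directions were kept, but E2f2 fell behind E2f1 in level, at a mean of 7.08 against 8.43 TPM in EKLF/GFP+ libraries. In EKLF/GFP- libraries coding E2f2, at 3.15 TPM, was below E2f1 (7.13), E2f7 (5.04) and E2f5 (4.44).

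Most of the E2f2 TPM came from a short transcript. E2f2-201, the coding transcript of 7 exons, had 7.05, 6.55 and 7.65 TPM in EKLF/GFP+ and 3.37, 3.26 and 2.80 TPM in EKLF/GFP- libraries. E2f2-202, annotated as a processed transcript at chr4:136180783-136186807, had 55.3, 52.7 and 60.5 TPM against 28.5, 27.8 and 22.1 TPM. Both transcripts were about as much higher in EKLF/GFP+ libraries, by 2.25-fold and 2.15-fold. E2f2-202 held 88.7% to 89.5% of the E2f2 TPM but 23.6% to 25.1% of its estimated counts, and its effective length was 177 bases against 4490 for E2f2-201. Its first exon of 143 bases lies in the intron after exon 3 of E2f2-201, exons 2 and 3 of 159 and 115 bases are identical to exons 4 and 5, and its last exon is 9 bases of exon 6. Reads from the shared exons can be assigned to either transcript.

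**Figure D4:**
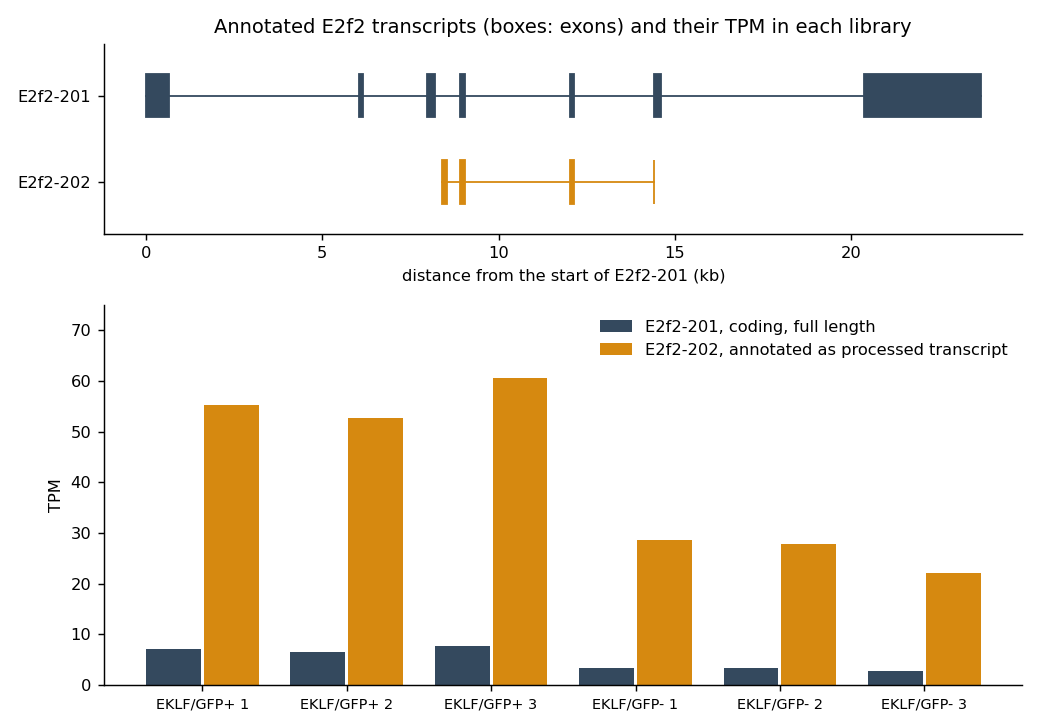
Top, exons (boxes) of E2f2-201 and E2f2-202 by distance from the start of E2f2-201 in kb. Bottom, TPM (y axis from 0) of E2f2-201 (dark) and E2f2-202 (orange) in each of the 6 sorted libraries. E2f2-202 stands at 52.7 to 60.5 TPM in EKLF/GFP+ and 22.1 to 28.5 TPM in EKLF/GFP- libraries, and E2f2-201 at 6.55 to 7.65 and 2.80 to 3.37 TPM.

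The 250 bases before each of the 2 E2f2 starts are shown because E2f2 had the largest difference among the E2f members in both bulk comparisons. In addition, the second start lies next to the first base of E2f2-202. They are RefSeq promoter entries on GRCm38.p6, both on the plus strand, at chr4:136172024-136172273 and chr4:136180532-136180781, printed 5′ to 3′. Capitals mark matches to CCNCNCCC, the form of site that EKLF is known to bind, on either strand, and overlapping matches run together.
E2f2 first start: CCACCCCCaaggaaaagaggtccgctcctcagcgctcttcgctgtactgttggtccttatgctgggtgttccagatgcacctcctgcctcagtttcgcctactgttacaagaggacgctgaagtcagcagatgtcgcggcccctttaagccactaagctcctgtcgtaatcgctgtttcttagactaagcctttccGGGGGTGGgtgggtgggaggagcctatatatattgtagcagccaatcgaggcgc
E2f2 second start: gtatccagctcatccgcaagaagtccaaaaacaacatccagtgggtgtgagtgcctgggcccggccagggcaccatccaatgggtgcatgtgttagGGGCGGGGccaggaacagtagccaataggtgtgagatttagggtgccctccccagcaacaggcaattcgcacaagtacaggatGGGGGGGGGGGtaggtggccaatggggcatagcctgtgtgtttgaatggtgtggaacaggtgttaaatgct
The first window holds 2 matches, starting at -250 on the plus and -54 on the minus strand relative to the RefSeq start. The second holds 5, of which 4 overlap in a run of G from -71, and its first 46 bases are in exon 3 of E2f2-201. CCNCNCCC is common: 45.9% of 32851 RefSeq promoter windows of this length hold it. Entries were found for 6 of the 8 members, 8 windows in all, and 7 of the 8 windows hold it. The E2f1 window lies within the annotated E2f1 gene, downstream of its annotated start. CCACACCC, found in 3.2% of all windows, and AGATAA, the GATA form found in 9.99%, are in neither E2f2 window. CCAAT, found in 33.8% of all windows, is in both. A match is a stretch of letters, and binding was not measured here.

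E2f8 also had a short second transcript. E2f8-204, a retained intron transcript with an effective length of 349 bases, held 53.0% to 57.2% of the E2f8 TPM and 10.99% to 12.7% of its estimated counts. The coding E2f8-202 was at 30.4, 23.0 and 29.1 TPM in EKLF/GFP+ and 25.0, 26.4 and 19.0 TPM in EKLF/GFP- libraries, and these overlapped. E2f4, in contrast, came mainly from its coding transcript E2f4-201, at 84.5, 64.7 and 79.6 TPM against 51.8, 54.1 and 40.1 TPM. The coding transcript E2f6-201 was on the other side of the gene as a whole, at 1.90, 1.91 and 1.74 TPM in EKLF/GFP+ and 2.87, 3.44 and 2.11 TPM in EKLF/GFP- libraries.

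In the single-cell library 3093 of 3096 cells were kept, with a median of 18605 counts per cell, and fell into 15 clusters. Clusters 0, 1 and 2 were macrophage-like (648, 402 and 391 cells) and clusters 4, 5 and 7 erythroid-like (237, 197 and 181 cells). Of the erythroid-like clusters, cluster 4 was led by no erythroid list gene and held 144 CPM of Klf1, cluster 5 was led by Hemgn, Slc4a1 and Sptb and held 164 CPM, and cluster 7 was led by globins and held 35.7 CPM. In cluster 7 a median of 1262 genes was detected per cell. Clusters 8 (122 cells) and 13 (58 cells) stayed unnamed, and the rest were monocyte-like, granulocyte-monocyte progenitor-like, mast cell- or basophil-like, megakaryocyte-like, endothelial-like, hepatoblast-like and neutrophil-like. Counts were summed per cluster, and the intervals below are 95% Poisson intervals that cover counting error only.

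E2f2 differed widely between the clusters. It was at 142 CPM (132 to 153) in cluster 5 and at 130 CPM (117 to 143) in cluster 7, but at 29.5 CPM (26.4 to 32.8) in cluster 4. The macrophage-like clusters held 8.81 CPM (6.77 to 11.3), 14.6 CPM (12.4 to 17.1) and 12.04 CPM (9.83 to 14.6). E2f2 was therefore high in the clusters with the erythroid list genes or globins in front, and low in the erythroid-like cluster without them. The unnamed cluster 8 held 110 CPM (92.7 to 128), between these, together with 509 CPM of Adgre1. Of the remaining clusters the neutrophil-like one held 77.8 CPM (46.1 to 123) from 18 counts, and the rest lay between 8.75 CPM (megakaryocyte-like) and 57.7 CPM (cluster 13). With each cell thinned to 5000 counts, E2f2 was seen in 50% of the cells of cluster 5, 38.7% of cluster 7 and 40.0% of cluster 8, and in 4.48%, 6.47% and 4.39% of the cells of clusters 0, 1 and 2.

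E2f4 took a different course through the erythroid-like clusters. It was highest in cluster 4 at 120 CPM (114 to 127), lower in cluster 5 at 98.3 CPM (90.1 to 107), and at 21.0 CPM (16.3 to 26.7) in cluster 7. In the macrophage-like clusters it was at 40.7, 42.2 and 45.1 CPM, with overlapping intervals. E2f4 in cluster 7 was thus below its level in the macrophage-like clusters, whereas E2f2 in cluster 7 was above it. Cluster 8 held 71.8 CPM (58.3 to 87.4) of E2f4 and the megakaryocyte-like cluster 67.1 CPM (58.7 to 76.4).

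E2f8 was at 32.8 CPM (29.6 to 36.3) in cluster 4 and at 58.2 CPM (51.9 to 65.1) in cluster 5, but a single count gave 0.313 CPM (0.00794 to 1.75) in cluster 7. The macrophage-like clusters held 13.01, 15.5 and 14.6 CPM of E2f8, and the granulocyte-monocyte progenitor-like cluster held 52.0 CPM (45.9 to 58.7). E2f1 was more even, at 33.4 CPM (29.3 to 37.9), 40.3 CPM (36.5 to 44.4) and 34.5 CPM (30.7 to 38.7) in the macrophage-like clusters and at 33.2 CPM (29.97 to 36.7) and 38.2 CPM (33.2 to 43.9) in clusters 4 and 5. In cluster 7 it was at 3.76 CPM (1.94 to 6.57). In cluster 7, then, E2f1, E2f4 and E2f8 were all below their levels in clusters 4 and 5, and E2f2 was not below cluster 5 beyond counting error.

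E2f3 was at 9.37, 17.5 and 15.4 CPM in the macrophage-like clusters and at 20.4, 8.85 and 0.940 CPM in clusters 4, 5 and 7. E2f5 was at 16.8, 16.2 and 13.7 CPM in the macrophage-like clusters and at 14.1, 4.33 and 1.25 CPM in the erythroid-like ones. E2f6 was at 14.7, 11.97 and 17.7 CPM against 22.9, 6.78 and 0.940 CPM. For all 3 genes the order of the erythroid-like clusters was 4, then 5, then 7. E2f7 was low throughout, at 7.27, 6.33 and 7.601 CPM in the macrophage-like and 6.98, 12.1 and 0.627 CPM in the erythroid-like clusters, and was highest in the endothelial-like cluster at 27.2 CPM.

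**Figure D5:**
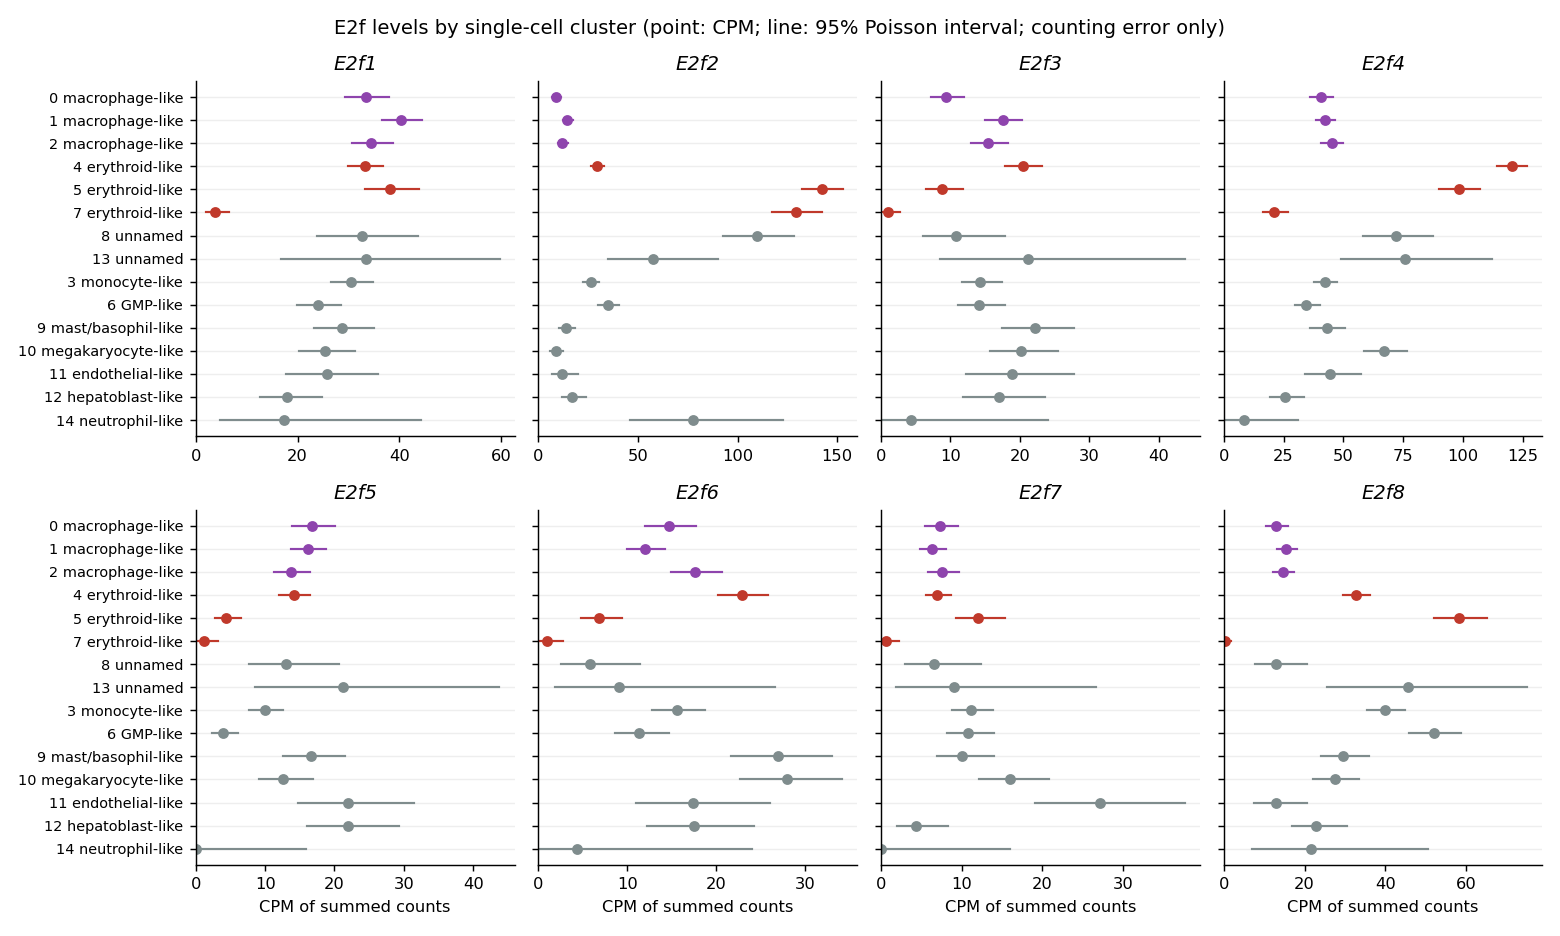
CPM of summed counts (x axes from 0, separate for each gene) of each E2f member in the 15 clusters (rows), with macrophage-like clusters in purple, erythroid-like in red and others in grey. Points are CPM and lines 95% Poisson intervals, which cover counting error only. E2f2 stands out in clusters 5, 7 and 8 at 110 to 142 CPM, and E2f1, E2f4 and E2f8 drop in cluster 7.

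Pooled over their clusters, the 615 erythroid-like cells held 6.2 times the E2f2 level of the 1441 macrophage-like cells (interval 5.49 to 7.02). The ratio was 2.31 (2.14 to 2.48) for E2f4, 2.37 (2.09 to 2.69) for E2f8, 0.818 (0.737 to 0.907) for E2f1 and 0.610 (0.511 to 0.727) for E2f5. The intervals of E2f3, E2f6 and E2f7 included 1 at these settings. The E2f2 ratio was 4.42 with cluster 8 counted as macrophage-like and 9.73 with at least 1000 detected genes per cell, where the cells were clustered and named anew and 417 were erythroid-like. At that minimum the ratio was 0.646 (0.516 to 0.804) for E2f3, 0.328 (0.244 to 0.434) for E2f5, 0.579 (0.458 to 0.727) for E2f6 and 1.31 (1.02 to 1.68) for E2f7. The E2f1 ratio was 0.894 (0.790 to 1.009) there, an interval that included 1. A clustering resolution of 0.4 gave 480 erythroid-like cells. There E2f3 was at 0.639 (0.512 to 0.792), E2f5 at 0.325 (0.243 to 0.426) and E2f6 at 0.559 (0.442 to 0.701), while the interval of E2f7 again included 1. These ratios moved with the setting. The settings with new clusters pooled other sets of cells than the 615 and 1441 above, and the cause of the shifts was not tested. With 1 library there is no replicate behind these values.

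The DP partner Tfdp2 was at 63.3, 145 and 209 CPM in clusters 4, 5 and 7 and at 204 CPM in cluster 8, against 8.67, 13.9 and 14.2 CPM in the macrophage-like clusters. Clusters 7 and 8 thus held similar levels of Tfdp2. Rb1 was at 26.8, 70.4 and 10.0 CPM in clusters 4, 5 and 7. Among the cyclins, Ccne1 was at 161, 78.9 and 4.70 CPM in clusters 4, 5 and 7 against 17.6, 18.1 and 17.9 CPM in the macrophage-like clusters, and Ccnd1 was at 6.54, 5.84 and 10.3 CPM in the erythroid-like against 123, 122 and 141 CPM in the macrophage-like clusters. The summed G1/S targets were at 3539, 3141 and 268 CPM in clusters 4, 5 and 7 and at 1966, 1796 and 1688 CPM in the macrophage-like clusters. Of the 15 clusters the target sum was lowest in cluster 7, where E2f2 remained at 130 CPM.

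The genes most like each member over the 14 clusters of at least 50 cells were found by Pearson's r of log2(CPM + 1) among 9714 genes. For E2f2 they were Slc25a37 (0.923), which carries iron into mitochondria, Epb42 (0.890) and Slc4a1 (0.883) of the red cell membrane, Gm20236 (0.882) and Trim10 (0.879). For E2f4 they were Usp45 (0.924), Stx2 (0.922), Usp7 (0.921), Slc41a3 (0.918) and Josd1 (0.912). For E2f8 they were Ncapd3 (0.982), Fbxo5 (0.968), Top2a (0.966), Kif11 (0.959) and Mybl2 (0.959), and for E2f1 Ncaph2 (0.968), Nfyc (0.958), Ncaph (0.95), Rpa1 (0.95) and Spdl1 (0.949). The list for E2f3 was Pnn, Wdr33, Thap2, Eif4a2 and Prpf4b, with r from 0.985 down to 0.980. Mink1, Spred2, Pigf, Rabep1 and Tent4b were nearest to E2f5 (0.961 to 0.946), Wdr61, 1110038B12Rik, Rbmxl1, Prmt1 and Rae1 to E2f6 (0.965 to 0.961), and Rbbp4, Ckap2l, Gabpb1, Ckap5 and Mad1l1 to E2f7 (0.924 to 0.911). Within the family, r of E2f2 with the other members ran from -0.806 (E2f6) to 0.189 (E2f4), against 0.769 for E2f1 with E2f8. The clusters come from 1 library and differ in depth, so these values are descriptions.

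Klf1 and E2f2 were also compared inside the macrophage-like cells. Klf1 was at 1.52 to 2.63 CPM in clusters 0, 1 and 2, a level also found in the monocyte-like (2.69 CPM) and granulocyte-monocyte progenitor-like (1.57 CPM) clusters. The 53 macrophage-like cells with a Klf1 count held 18.2 CPM of E2f2 (11.6 to 27.0), and the 1388 without held 11.8 CPM (10.5 to 13.3). For E2f4 the values were 51.4 CPM (39.9 to 65.2) and 42.3 CPM (39.8 to 45.0), and for E2f8 9.07 CPM (4.69 to 15.9) and 14.8 CPM (13.3 to 16.4). No test of these differences was run, since the 2 sets of cells come from 1 library and were chosen by a Klf1 count. The cells with a Klf1 count had a median of 22880 counts against 14340, and they held more globin RNA, with Hbb-bs at 12690 against 2006 CPM. The part of that RNA in the E2f values was not tested.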

How the data were processed

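In the EKLF-null set, reads had been aligned to mm10 (STAR), and the authors deposited htseq-count counts per gene. Rows that name no gene (67.2% to 72.7% of each file) and 5 further count columns in these files were left out. For EKLF/GFP libraries the authors deposited Salmon estimated counts and TPM per transcript on GRCm38, here summed per gene and rounded, and normalized counts whose signal was used in 1 alternative. The deposited single-cell counts came from alevin, and 4.19% of nonzero entries were not whole (tolerance 0.001). Versions were not given in the sources used here.

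Genes reaching 10 counts in 3 or more of the 6 libraries were tested with edgeR 4.0.16 (TMM, quasi-likelihood, Benjamini-Hochberg over all genes, threshold 0.05), each comparison alone, with no covariate. The tables were made differently, so levels were compared within a table. Single cells with at least 200 detected genes were clustered with Seurat 5.3.0 (4000 variable genes, 30 components, resolution 0.8) and named from marker lists. Scrublet (scanpy 1.11.5) called 0 doublets. Library depth limits precision as given beside each value. All 8 members, the small pathway lists, 3 targets per direction of each long list and the 5 genes of most similar pattern are named. Members and lists were chosen with earlier results of these data known. Replicate libraries differed by more than sampling noise. Same-numbered libraries did not deviate together (correlations -0.005 to 0.056 and -0.090 to 0.032), so no pairing was used. Between EKLF/GFP libraries of different number the correlations ran from -0.158 to 0.166, and a pairing in another order was not tested. Some items are not reported here.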

Additional observations from a re-analysis of the deposited data

How the results depend on the processing

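Of the results for single genes, each counted once per alternative, 872 stayed the same, 11 gained and 87 lost the call, 11 moved and 10 reversed. In the bulk tests the same meant an unchanged direction and side of the threshold, and for TPM shares an unchanged direction. For single-cell ratios it meant a value inside the interval of the main setting, and moved meant outside it. E2f1, E2f2 and E2f4 kept their calls in EKLF-/- under all 13 alternatives, and E2f2 and E2f4 in EKLF/GFP+ under all 15. Leaving out 1 library at a time, the members lower in EKLF-/- numbered 3 to 7 instead of 6 and the genes of the pathway lists 5 to 18 instead of 13. Over all genes the number called lower ran from 575 to 1889 in these fits, instead of 1356. A gene length correction, chosen after seeing the data, raised the members higher in EKLF/GFP+ from 3 to 5. It raised the genes called higher there from 2696 to 3264 of all 14259 tested. The uncalled E2f5 change in EKLF-/- turned to 0.0219 with the length correction and ran from -0.0918 to 0.0387 with 1 library left out. Adgre1, also uncalled, ran from -0.0501 (without EKLF-/- replicate 2) to 0.207 in EKLF-/- and from -0.102 (without EKLF/GFP+ replicate 3) to 0.566 in EKLF/GFP+. In EKLF/GFP+, E2f7 turned to -0.27 with the transcript length offset and to -0.24 with limma on the normalized counts plus 1, where E2f6 was at -0.48. The cause was not tested.

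With a replicate block, 5 instead of 6 members were lower in EKLF-/- (E2f6 was lost) and 2 instead of 3 higher in EKLF/GFP+ (E2f1 was lost). Over all genes 1037 instead of 1356 were lower in EKLF-/-, and 2360 instead of 2696 were higher in EKLF/GFP+. The numbers did not pair the libraries. The E2f2 ratio of erythroid-like over macrophage-like cells, 6.2, was 9.73 with at least 1000 detected genes, 9.13 at resolution 0.4, 9.10 after thinning to 5000 counts and, in an alternative chosen after seeing the data, 4.42 with cluster 8 among the macrophage-like cells. The settings of 1000 genes and resolution 0.4 pooled 417 and 480 erythroid-like cells instead of 615. Scrublet called no cell, so leaving out doublets changed nothing, and without the 5% of cells with the highest scores the ratio was 6.79. With 3 libraries per group the edgeR p-values set a group difference against the spread between these libraries, estimated with the help of all genes. With 1 single-cell library intervals cover counting error only.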
